A study of Mus musculus with 3 samples.

Results

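The 290 genomic windows described here are places where piRNA-length small RNA reads were abundant in MEL cells and scarce in both spleen and adult testis. They were selected on the measured counts of 24 to 32 nt reads. A window was 10 kb of a chromosome, tiled from its start, and each read was placed by its left end. A window was taken when it held at least 20 such MEL reads and when its reads for every 1000000 mapped (RPM) were at least 4 times those of the spleen library and of the testis library. A library with under 3 reads was set at 3, and the mitochondrial genome was left out. The 290 windows were 47.5% of the 610 windows with at least 20 MEL reads of this length, and 30723 windows held such a read in any library. Since the rule used these counts, MEL abundance and the folds over spleen and testis are given as a description and support nothing further.

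Each group had 1 library, so no difference has a replicate check and no p-value is given. MEL cells are a mouse erythroleukemia line of early erythroblasts transformed by Friend virus. Their small RNAs were recovered from whole-cell lysate with a rabbit polyclonal antibody against mouse MIWI2 (PIWIL4). The spleen library was made with the same antibody from unfractionated cells, in C57Bl6/J mice aged 10 weeks. The testis library, from mice of that strain and age, involved no antibody: total RNA was run on an 18% polyacrylamide gel and the visible band near 29 nt was taken. No input RNA or control precipitate was analysed here, so RNA bound to MIWI2 and RNA that was abundant in the lysate cannot be told apart. In the 2 tissues, fewer cells of a type and less RNA per cell cannot be told apart either. How many mice were pooled is not given in the sources used here, and MEL cells differ from both tissues in culture and in viral transformation together.

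PIWI proteins are Argonaute relatives that carry piRNAs, small RNAs longer than microRNAs, which guide them to transposon and other transcripts. MIWI2 is best known from fetal male germ cells, where it acts in the nucleus and is needed for DNA methylation of transposons. In adult testis, most piRNAs are cut from long precursor transcripts of large genomic clusters, and such clusters are covered by reads with many different ends. The deposited positions carry neither strand nor sequence, and their genome build does not match the annotation at hand: on 10 assembled chromosomes reads lay beyond the last gene of GRCm38. No gene is therefore named and no sequence is shown. Positions count from 1 and "left" and "right" mean the lower and higher coordinate of a read, which cannot be assigned to 5′ or 3′ ends.

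The libraries held 823452 (MEL), 692011 (spleen) and 1143785 (testis) mapped reads, of which 34.9%, 9.45% and 93.6% were 24 to 32 nt long. A count of 3 reads thus stood for 3.64, 4.34 and 2.62 RPM. The longest reads were of 36 nt, but of 40 nt in the spleen library, and the testis lengths were set in part by the gel band. Intervals given below are 95% intervals for counting error (Clopper-Pearson for shares, exact Poisson for ratios). No molecular identifiers were used, so PCR copies count as separate reads.

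The windows held most of the piRNA-length reads of the MEL library and almost none of those of the other libraries. They contained 196705 MEL reads of 24 to 32 nt, which was 68.4% (68.3 to 68.6) of all MEL reads of that length. The same windows contained 1889 spleen reads, or 2.89% (2.76 to 3.02) of the spleen reads of that length, and 1047 testis reads, or 0.0978% (0.0919 to 0.104). On the RPM scale the MEL sum was 238879, against 2730 for spleen and 915 for testis. Spleen had 0 reads in 168 of the windows and testis in 147, and 174 were under 3 reads in both, where the fold is a lower bound against the floor. The median fold with the floor was 13.7 over spleen and 21.8 over testis. The number of windows depended on how abundance was scaled. With RPM taken over 24 to 32 nt reads alone, 138 windows passed, 134 of them among the 290. Counting each distinct interval (a pair of start and end) once left 101 windows, of which 95 were among the 290, and these held 7.99% of the MEL intervals.

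**Figure D1:**
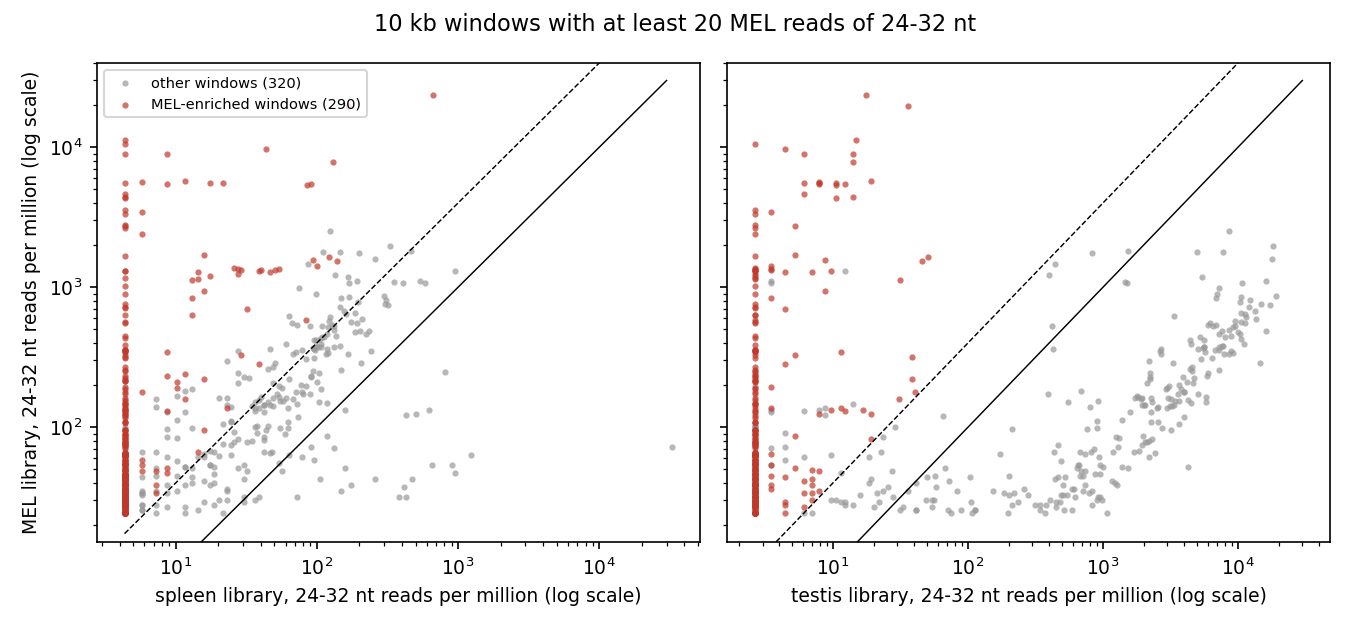
MEL reads of 24 to 32 nt as RPM (vertical, log scale) in each of the 610 windows with at least 20 such reads, against spleen (left panel) and testis (right panel), with libraries under 3 reads drawn at 3 reads. Solid lines mark equal RPM and dashed lines 4-fold higher MEL: the 290 red windows lie above both dashed lines by the rule, many of them at the floor of the other library, and the 320 grey windows include a dense arm with high testis RPM.

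Abundance was very uneven among the windows. MEL counts ran from 20 to 19370 reads with a median of 52.5. The 12 most-read windows held 50% of the reads and the 55 most-read held 90%. At least 1000 reads were found in 44 windows and at least 100 in 111.

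The window with most reads was chr6:47730001-47740000, with 19370 MEL, 462 spleen and 20 testis reads of 24 to 32 nt. It alone held 9.85% of the reads in the 290 windows, and its spleen count was also the highest among them, although at 35.2-fold lower RPM than in MEL. Its reads formed 2 stacks, a stack being a run of overlapping MEL reads: 16314 reads between 47738148 and 47738180, and 2940 reads between 47738067 and 47738104. In the larger stack 99.8% of the reads shared the right end 47738179, while their left ends were spread, so the stack was sharp on 1 side and ragged on the other.

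The next window, chr3:153570001-153580000, had 16332 MEL, 115 spleen and 41 testis reads. Its 2 stacks lay 482 bases apart and were of like size, with 7746 and 8574 reads and a most frequent length of 25 nt in each. Neither stack had 90% of its reads on a single end.

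The third, chr3:51160001-51170000, had 9338 MEL, 3 spleen and 17 testis reads. Its stacks of 4706 and 4631 reads had 98.8% and 99.1% of their reads on 1 left end. Its fold over spleen (2616) was the largest among the windows with the floor of 3 reads. That floor holds down the fold of windows with fewer spleen reads, such as chr7:106630001-106640000, at 2422 with 1 spleen read. The ranking therefore does not show which window was lowest in spleen relative to MEL. The largest fold over testis (4004, against the floor of 3 reads) was that of chr7:106630001-106640000, with 8647 MEL reads against 1 in spleen and 2 in testis. All but 6 of its 24 to 32 nt reads lay in 1 stack, mostly of 24 nt reads, and 91.0% of that stack shared a right end.

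The largest window with 0 reads of 24 to 32 nt in both other libraries was chr14:70840001-70850000, with 2732 MEL reads; it was singled out after its values were seen. There were 109 windows of that kind, with 20 to 2732 MEL reads, and together they held 5.99% of the reads in the 290 windows. Absence in the other libraries was thus found in many windows, but mostly in small ones.

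The rule requires low testis counts, so the windows were bound to avoid the strongest testis loci. None of the 290 lay in any of the 128 testis piRNA clusters (runs of windows that reach 100 RPM and 20 distinct left ends in testis over all lengths, bridging gaps of 1 window), against 221 of the 320 other windows. Of those 320, 153 missed the rule by the testis fold alone, 50 by the spleen fold alone and 117 by both.

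Read length within 24 to 32 nt was not used by the rule, and in these windows it lay toward the short side. The most frequent length of the pooled MEL reads was 25 nt (27.5%), followed by 26 nt (23%), 27 nt (19.9%) and 24 nt (16.8%). Reads of 29 to 32 nt, where the testis reads were most numerous, made up 6.23% (6.12 to 6.34) of the MEL reads in the windows and 14.8% (14.6 to 15.1) of the MEL reads of that length elsewhere in the genome. The difference was smaller when each distinct interval was counted once: 12.4% (11.6 to 13.2) in the windows against 16.2% (15.9 to 16.5) elsewhere. Both counts gave the lower share of long reads inside the windows. Window by window the median share was 3.35%, against 22.4% in the 221 other windows inside a testis cluster and 7.14% in the 99 outside one, so much of the difference went with the clusters.

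The few reads of the other libraries in the same windows included larger shares of long reads. The most frequent length there was 25 nt in spleen, as in MEL, and 30 nt in testis. Reads of 29 to 32 nt made up 24.5% (22.6 to 26.5) of the spleen reads and 59.3% (56.3 to 62.3) of the testis reads there. Outside the windows the shares were 55.6% in spleen and 80.4% in testis. Counted by reads, the windows held fewer long reads than the remainder of the genome in each of the 3 libraries. By distinct intervals this was so in MEL and testis, whereas in spleen the intervals of the 2 shares, 34.3% and 36.5%, overlapped. The order inside the windows was MEL, spleen, testis from the lowest share of long reads to the highest.

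**Figure D2:**
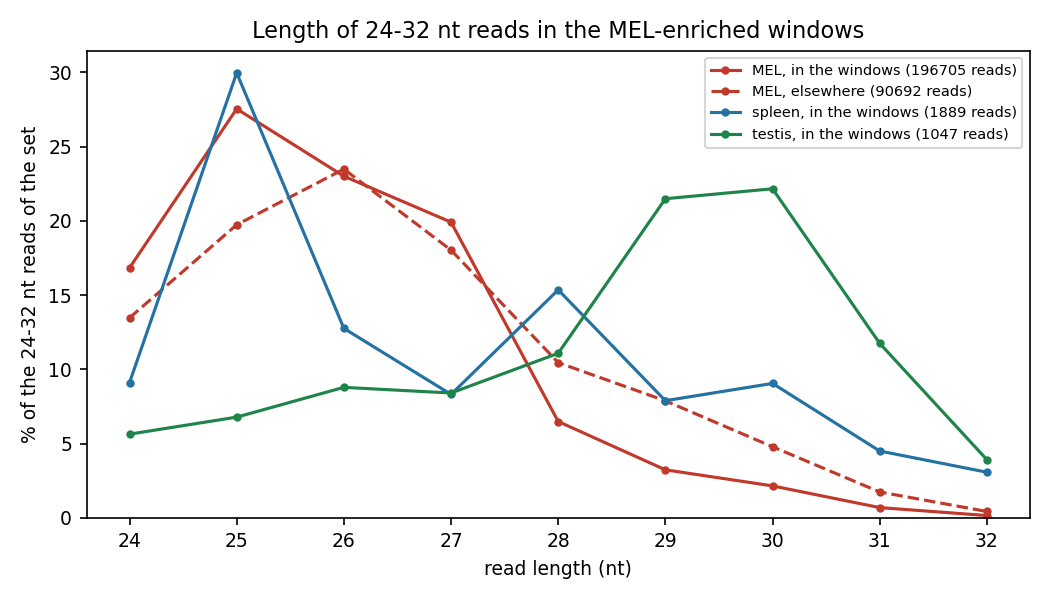
Share (%) of the 24 to 32 nt reads at each length (nt), for the MEL reads inside and outside the 290 windows and for the spleen and testis reads inside them. MEL and spleen reads inside the windows peak at 25 nt, MEL reads outside at 26 nt, and testis reads inside at 30 nt.

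Of the 9 lengths, 24, 25, 26 or 27 nt was the most frequent in 267 of the 290 (92.1%), with 79, 84, 64 and 40 windows at each. The same held in 287 of the 320 other windows (89.7%), so a mode in this range was not particular to the 290. Inside the range, 24 nt led in 27.2% of the 290 against 8.44% of the others, and 26 nt in 22.1% against 46.25%. Among the 290, a length of 28 nt led in 10 windows, 29 nt in 7 and 30 nt in 6. The 13 windows led by 29 or 30 nt (4.48% of the 290, against 6.56% of the others) held 0.779% of the reads. A long mode was thus rare in both sets, and among the 290 it was not found in the most-read windows. These long-mode windows were named after their values were seen. The most-read of them, chrX:93430001-93440000, had 735 MEL reads in 1 stack and 0 in spleen and testis, with 47.8% of the reads at 29 nt and none longer. The next, chr1:146070001-146080000, had 181 MEL, 11 spleen and 44 testis reads and 80.7% of its MEL reads at 29 to 32 nt, the highest share among the windows. Its testis fold of 5.71 was near the threshold.

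Within a window the reads were concentrated at few positions. The median window had 11 distinct left ends (range 1 to 92), against 33.5 (2 to 624) in the 320 other windows with at least 20 MEL reads. Its most-read interval held 28.8% of the reads, against 8.33%, and its main stack, the one with the most-read interval, held 97.8%, against 17.3%. The main stack held at least 50% of the reads in 244 of the 290 windows and every read in 113. Among the 320 others these counts were 70 and 18. Since a window with more reads can have more ends, the sets were also compared at like counts. For windows with 20 to 99 reads the medians were 9 left ends and 97.0% in the main stack, against 19 and 20%. At 100 or more reads they were 13 and 98.5%, against 113.5 and 13.2%. In both count ranges the MEL-enriched windows were mostly narrow stacks and the others were mostly spread. Part of this went with the testis clusters, which the rule leaves out. The 221 other windows inside a cluster had a median of 69 left ends and 12.5% of their reads in the main stack, while the 99 outside any cluster had 17 and 60%. The MEL-enriched windows, at 11 and 97.8%, were thus nearer to the windows outside the clusters, and still narrower than those at the median.

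Windows that departed from this form were found too. The most left ends, 92, were in chr6:3150001-3160000, where 154 MEL reads were spread so that the main stack held 21.4% of them, with 0 spleen and 1 testis read. The window chr3:5860001-5870000 had 65 left ends on 256 MEL reads and 0 reads in spleen and testis. The third, chr19:12080001-12090000, had 55 left ends on 769 MEL reads, with 11 in spleen and 10 in testis, and a most frequent length of 28 nt. In all, 57 of the 290 windows had at least 20 distinct left ends, against 223 of the 320 others, and 78 had at most 5, against 5. Several of the windows with most left ends were strong stacks over a sparse background rather than spread reads: chr17:23670001-23680000 had 49 left ends, yet 71.4% of its 6462 MEL reads lay in 1 stack, and chr11:68850001-68860000 had 48, with 97.3% of 4730 reads in 1 stack.

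Many stacks were fixed at 1 end. Of the 251 windows whose main stack had at least 20 reads, 56 had at least 90% of the stack on 1 left end, 26 on 1 right end, 11 on both and 158 on neither. In the most-read windows fixed ends were common: of the 20 windows with most reads, 12 had a left-fixed and 6 a right-fixed main stack. However, 15 of these 20, all with a fixed end, fell into groups of stacks alike in shape and count, described below. They therefore cannot be taken as separate cases. Among the 156 other windows whose main stack had at least 20 reads, 13 were left-fixed, 17 right-fixed and 0 fixed at both ends.

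**Figure D3:**
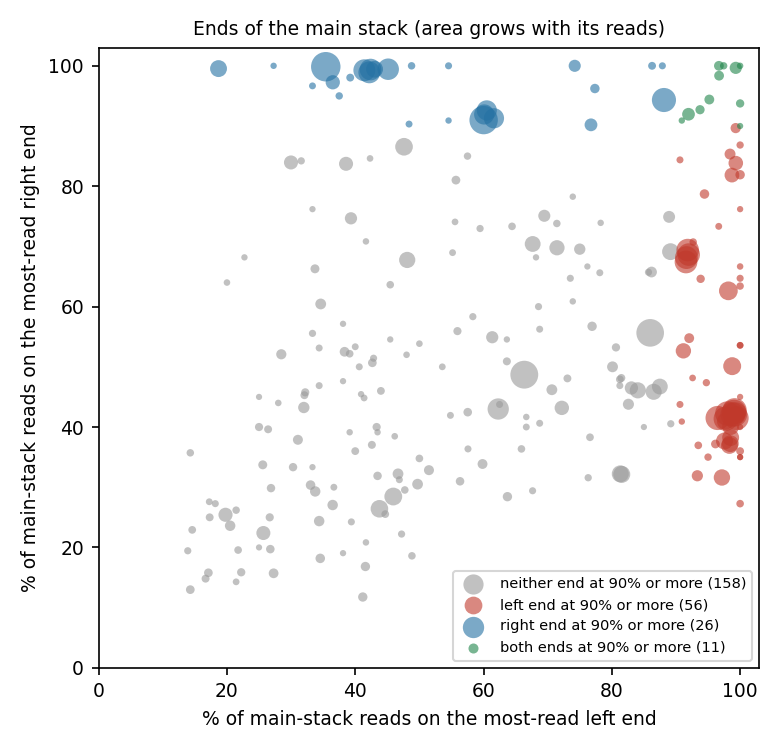
Share (%) of the main-stack reads on its most-read left end (horizontal) and most-read right end (vertical) in the 251 MEL-enriched windows whose main stack had at least 20 reads of 24 to 32 nt; each point is a window and its area grows with its reads. Most of the largest points sit at the right edge (left end at 90% or more, 56 windows) or the upper edge (right end at 90% or more, 26 windows), and 158 grey windows have neither end fixed.

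Reads of 18 to 23 nt were not used to select the windows, nor to define their stacks, and lay on the same fixed ends. In the 44 left-fixed windows with at least 20 such MEL reads on the stack, a median of 93.8% of them started at the same left end, and this share was above that on the right end in 40 of 44. In the 22 right-fixed windows a median of 84.4% ended at the same right end, with 20 of 22 in that direction. The short reads thus mostly shared the fixed end of the stack. These windows include groups of stacks alike in shape, described below. All of groups 1, 2, 4 and 9 were among the left-fixed, and all of groups 3 and 5 among the right-fixed. Single windows of other groups, such as 11, 14 and 15, were there too. Some shapes are therefore counted more than once, and the shares were not taken with each group counted once. A shorter read that shares 1 end must differ at the other, so the other end adds nothing.

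A pair of stacks on chromosome 14 shows the 2 forms. In chr14:51710001-51720000, with 4654 MEL, 4 spleen and 9 testis reads of 24 to 32 nt, 4561 reads began at position 51710322 and their right ends were spread, with most reads 25 or 26 nt long. In chr14:51680001-51690000, with 2936 MEL, 2 spleen and 3 testis reads, 2891 reads ended at position 51684560 and it was the left ends that were spread. The 18 to 23 nt reads followed: 826 began at the fixed left end of the first, and 518 ended at the fixed right end of the second.

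**Figure D4:**
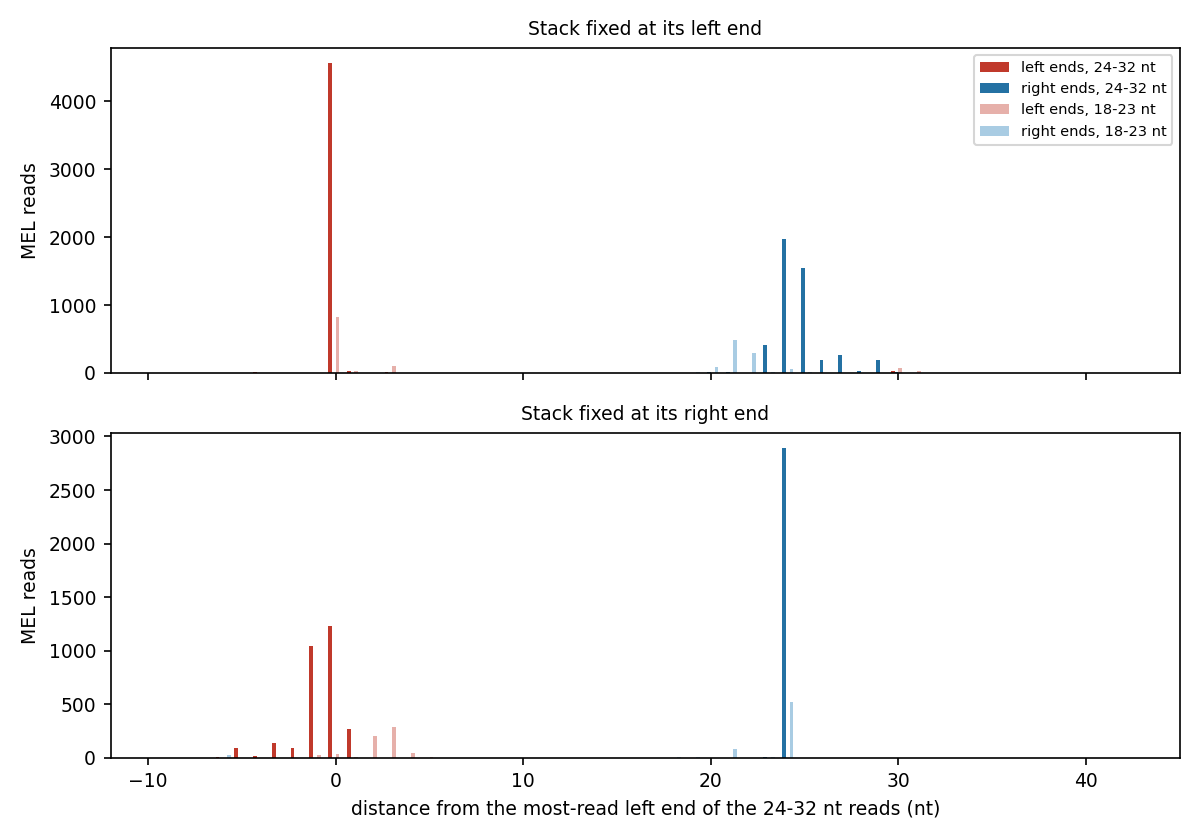
Number of MEL reads whose left (red) and right (blue) ends fall at each distance (nt) from the most-read left end, in a stack fixed at its left end (upper panel) and one fixed at its right end (lower panel), both on chromosome 14; dark bars are 24 to 32 nt reads and pale bars 18 to 23 nt reads. In the upper panel 4561 of the long reads share position 0 and in the lower panel 2891 share the right end at 24, and the opposite ends spread over several positions in each.

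Reads outside 24 to 32 nt were also far more abundant in MEL than in the other libraries in these windows. MEL had 86620 of them, spleen 2390 and testis 351, and the MEL RPM was 30.5 times (29.2 to 31.7) that in spleen and 342.8 times (308.7 to 381.8) that in testis. Outside the windows the same ratios were 0.605 and 8.63. With each distinct interval counted once in the same windows, and scaled to the distinct intervals of the library, the ratios were lower, 5.09 over spleen and 73.1 over testis. The testis RNA had been taken from a gel band, so its short reads were few throughout, and the ratio elsewhere is the value to set beside it. For reads of 18 to 23 nt, a range that includes microRNAs, the windows held 83498 MEL reads, or 33% of the MEL reads of that length. Their ratio was 38.5 (36.7 to 40.3) over spleen, against 1.23 elsewhere, and 340.1 (305.8 to 379.4) over testis, against 3.93. For reads under 18 nt the ratio over spleen was lower, at 5.14 (4.67 to 5.65). The enrichment of MEL at these places was therefore not limited to the length range used by the rule, although reads of all lengths came from the same 3 libraries. In the median window 94.8% of the MEL reads of 18 to 23 nt lay on the main stack of 24 to 32 nt reads. Selecting a window for its stack can carry the shorter reads of that stack along, so their excess is not independent of the rule.

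Applied to 18 to 23 nt reads, the 4-fold rule held in 71.7% of the 942 windows with at least 20 such MEL reads. Of the MEL-enriched windows, 207 had at least 20 such reads and 202 of them (97.6%) passed, while 83 had fewer and could not be judged. Among the 320 other windows, 161 had enough and 27 (16.8%) passed. Over the whole genome outside the 290, 735 windows had enough and 473 (64.4%) passed, so a high MEL share of 18 to 23 nt reads was frequent and was not a property of the 290 windows alone.

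The 5 windows that failed did so over spleen, and are named because they are few. In chr5:115930001-115940000, MEL had 1273 reads of 24 to 32 nt against 96 in spleen and 52 in testis, but 75 reads of 18 to 23 nt against 334 in spleen. Its neighbour chr5:115940001-115950000 had 1343, 84 and 58 of the longer reads, and 76 MEL against 38 spleen reads of 18 to 23 nt. In chr16:18530001-18540000 the short reads were 96 in MEL and 58 in spleen. The other 2, chr6:94770001-94780000 and chr11:87860001-87870000, had 20 and 23 short MEL reads against 20 and 8 in spleen. On the RPM scale, MEL was thus above spleen in the longer reads and below it in the shorter ones in chr5:115930001-115940000 and in chr6:94770001-94780000. In the latter the short reads were near-equal, at 24.3 RPM in MEL and 28.9 in spleen.

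The balance of short and long reads varied widely from window to window. The median ratio of 18 to 23 nt reads to 24 to 32 nt reads was 0.622, and the range was from 0 to 25.7. The most reads outside 24 to 32 nt were in chr7:106630001-106640000, with 3915 against 8647 inside that range. The adjoining windows chr2:32070001-32080000 and chr2:32080001-32090000 had 3252 and 3289 reads of 18 to 23 nt, more than their 1113 and 1121 reads of 24 to 32 nt. In chrX:161520001-161530000 and chr15:85530001-85540000 the short reads exceeded the long ones still further, with 1877 against 285 and 1756 against 142. In windows of this kind the reads that the rule counted were the smaller portion of the reads present. The window chr10:62220001-62230000 had both: 4489 reads of 24 to 32 nt, 83.2% of them on a single interval of 27 nt, and 2990 of 18 to 23 nt, 97.8% of those on the stack with the same right end.

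Some windows on different chromosomes held stacks that were alike in shape and count. Stacks were compared only among the 290 windows, so like stacks in other windows were not sought. Main stacks of at least 20 reads were called alike when their profiles of position and length overlapped by at least 80%, directly or mirrored, and their totals differed by no more than counting noise (binomial p of at least 0.05). Groups were joined through chains of such pairs, so near-equal totals inside a group follow in part from the definition, but members of 1 group need not all match each other. By it, 71 windows (24.5%) fell into 20 groups, 18 of which spanned at least 2 chromosomes, and the groups held 45% of the reads in the 290 windows. They included 15 of the 20 windows with most reads. No pair had exactly the same counts at every position and length. Every pair matched directly in 13 of the 20 groups, but for a group of 2 windows this is fixed by the definition. Of the 11 groups with 3 or more windows, every pair matched in 4, and 7 were joined through chains. Among these 11 groups, 4 had an SD of their totals within that of counting. With each group counted once, the 251 stacks came to 200.

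The largest group held 8 windows on 7 chromosomes, with 4525 to 4654 reads on the main stack (mean 4592, SD 45.3). Each had 96.5% to 99.4% of its reads on 1 left end, and 25 nt (42.1%) and 26 nt (34.6%) were the leading lengths. Its members were chr1:167570001-167580000, chr3:51160001-51170000, chr6:29330001-29340000, chr7:105960001-105970000, chr11:48660001-48670000, chr11:68850001-68860000, chr14:51710001-51720000 and chr17:23670001-23680000. Their 18 to 23 nt reads, which played no part in the grouping, numbered 973 to 1099 on the stack (mean 1030, SD 44.6), where counting noise alone gives an SD of 32.1. Counts of the unused length range were thus also close in this group. Their SD was above that of counting, but whether an SD from 8 windows exceeds counting noise was not tested. This did not hold in every group: in 7 of the 20, all among the 10 with fewest reads, the short reads on the stack differed by more than 2-fold between windows, as in group 14, with 8 to 797 in its 7 windows. The examples of single groups, apart from the largest, were chosen after their values were seen. In the other libraries the same 8 windows were not uniform, with 2 to 90 spleen and 7 to 22 testis reads of 24 to 32 nt; the 90 spleen reads were in chr17:23670001-23680000, which also had stacks of other shapes.

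A second group had 4 windows, chr3:19520001-19530000, chr5:31190001-31200000, chr13:23370001-23380000 and chr13:23390001-23400000, with 3419 to 3585 reads on the stack. Its reads were mostly of 27 nt (64.5%) and were left-fixed. The third group also had 4 windows, on chromosomes 13, 14, 17 and X, with 2827 to 3095 reads (SD 121, where counting gives 54.5) and 3 of its 6 pairs matched directly, and 98.9% to 99.4% of the reads shared a right end. Read in mirror image, the third group's profile overlapped that of the first by 96.1%, against 41.9% as it stood. A group of 3 right-fixed windows with 2175 to 2215 reads, on chromosomes 7 and 13, likewise overlapped the second group by 89.6% in mirror image and by 61.3% as it stood. The shapes therefore occurred in both orientations, with fewer reads per stack in the right-fixed form in both cases. As the files carry no strand, the 2 forms cannot be assigned to DNA strands.

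The fourth group had 7 windows on 5 chromosomes, with 1029 to 1112 reads on the stack. Its reads were of 24 nt (35.0%) and 25 nt (39.1%) and were 97.6% to 99.5% left-fixed, and 597 to 655 reads of 18 to 23 nt lay on each stack. Spleen reads of 24 to 32 nt numbered 19 to 69 in its windows, and testis reads 0 to 11. The same stack shape can occur more than once in a window. Counted over all 320 stacks of at least 20 reads in the 290 windows, the first group's shape was found in 11 stacks directly and in 8 in mirror image, and these held 21.1% and 9.51% of the reads in the windows. The window chr1:167570001-167580000 held both forms, with 4525 reads left-fixed and 2895 reads right-fixed, 562 bases apart. So did chr7:105960001-105970000, with 4530 and 2854 reads, 241 bases apart. How reads that match several places were assigned is not given in the sources used here, so whether such stacks are transcribed at each place or are the same reads placed at each cannot be told apart.

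**Figure D5:**
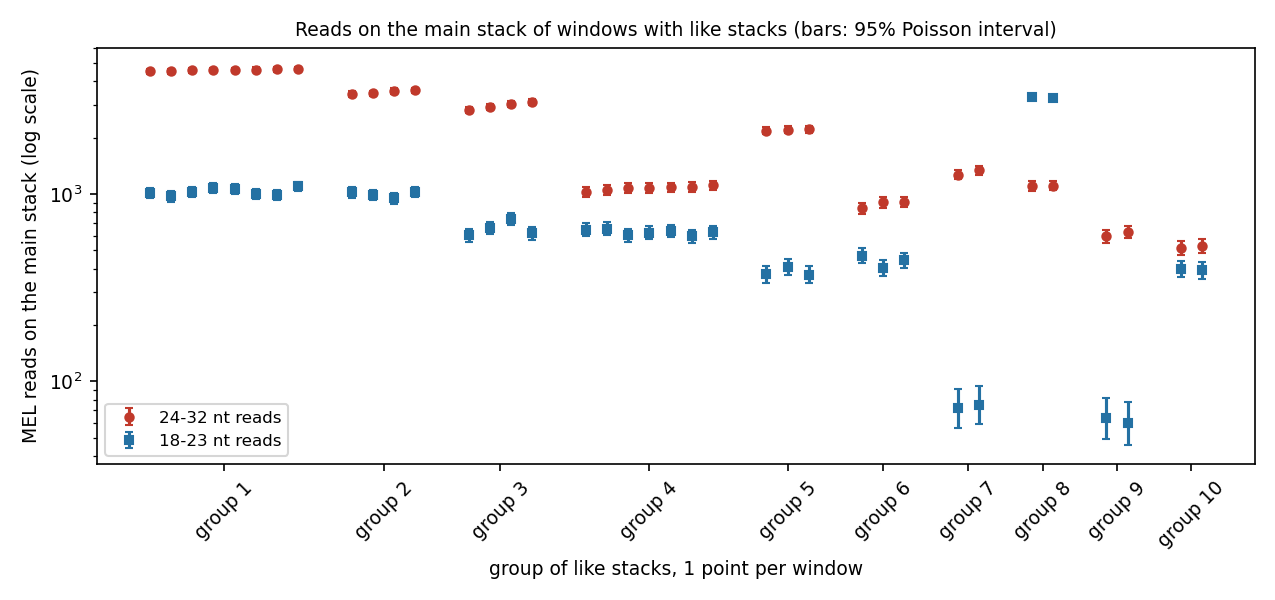
MEL reads (log scale) on the main stack of each window in the 10 groups of like stacks with most reads, 1 point per window, for 24 to 32 nt reads (red circles, used to form the groups) and 18 to 23 nt reads (blue squares, not used); bars are 95% Poisson intervals. Short reads range from 60 on a stack in group 9 to 3286 in group 8, where they exceed the long reads; within each of these 10 groups they differ by under 2-fold, and the ranges of some groups overlap, such as groups 1 and 2.

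The windows were spread over 22 chromosome names but gathered in places. Chromosome 13 had 34 of them, or 68% of its 50 windows with at least 20 MEL reads, against 47.5% of all such windows. Chromosome 6 had 32 (of 57, 56.1%). Chromosomes 1, 3 and 11 had 24 each (of 44, 36 and 46, or 54.5%, 66.7% and 52.2%). On chromosome 16 each of the 12 windows with at least 20 reads met the rule. Of these chromosomes, 1, 6 and 11 were nearest the overall share, so their counts largely followed the number of windows with at least 20 reads. Between them, 2 stretches of chromosome 13 held many windows. From 23370001 to 23860000 lay 10 windows with 18742 reads, or 9.53% of the total, 5 of them in groups of like stacks. From 21260001 to 22120000 lay 19 windows with 7691 reads, 4 of them in groups of like stacks, among them the longest unbroken run, 9 adjoining windows from 21290001 to 21380000. In that run MEL had 36 to 1992 reads a window, and spleen and testis together had 9 and 12 reads in all 9 windows. The 3 strongest windows of the run, with 1376, 953 and 1992 reads, were led by 27 nt reads on 1 left end (97.2% to 98.8% of the stack). Of the 9, 1 had a like stack elsewhere among the 290 windows.

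Chromosome 6 had a stretch of another kind, from 48080001 to 48310000, where 14 of 23 windows were MEL-enriched with low counts. They had 23 to 67 MEL reads each, 517 in all, against 4 in spleen and 2 in testis. None of the 14 had a like stack in another of the 290 windows, the only ones compared. Only main stacks of at least 20 reads were compared, and not every one of these 14 reached that, so the absence is in part fixed by low counts. Their main stacks held 28% to 100% of the reads (median 54.7%), below the 97.8% of the 290 windows. They had 691 MEL reads of 18 to 23 nt, against 4 in spleen and 0 in testis. In this stretch many weak windows lay close together, whereas 253 separate runs made up the 290 windows and only 19 runs, with 56 windows, had more than 1 window.

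The few spleen and testis reads in the windows lay largely on MEL positions. Of the 1889 spleen reads, 74.6% (72.6 to 76.6) had the same start and end as a MEL read and 87.8% (86.3 to 89.3) the same left end. Of the 1047 testis reads, 64.7% (61.7 to 67.6) matched a MEL read at both ends and 73.5% (70.8 to 76.2) at the left end. Counted once per distinct interval, 58.4% (53.7 to 62.9) of the 461 spleen intervals and 51.6% (47.4 to 55.7) of the 580 testis intervals were MEL intervals. Most reads of the other libraries in these windows therefore had ends that MEL reads had as well. The windows were chosen for many MEL reads, and no such share was taken outside them. Whether this sharing is particular to these windows was thus not tested.

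The thresholds cut through a continuous range. At the read limit, 15 of the windows had exactly 20 MEL reads, among them chr1:133470001-133480000 with 0 reads in spleen and testis, while 9 windows with 19 reads met both folds and were left out, among them chr11:58770001-58780000. At the spleen limit the nearest window inside was chr11:97850001-97860000 (55 MEL, 10 spleen and 0 testis reads, 4.62-fold) and the nearest outside was chr9:104310001-104320000 (50, 11 and 7, 3.82-fold). At the testis limit they were chr19:10050001-10060000 (68, 0 and 22, 4.29-fold) and chr11:58760001-58770000 (20, 0 and 7, 3.97-fold). The loss of 1 MEL read would take each of the 15 out. The window chr1:172990001-173000000, with 1210 MEL, 60 spleen and 502 testis reads, was the most abundant of the 5 nearest outside the testis limit, at 3.35-fold.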

How the data were processed

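The deposited files list positions (chromosome, start, end), 1 line per mapped read, and hold no other values: no strand, sequence, count or score. Per the submitters' processing notes the authors used Bowtie 0.12.7; mapping options, trimming, treatment of multiple matches and build: not given in the sources used here. The positions were joined to no annotation or sequence. From the lines, end minus start was taken as read length, and reads were counted per window, interval and end. RPM scaled each file to 1000000 lines. With 1 library per group no test was run. Windows named are the 20 with most MEL reads, the 10 with most left ends, the 10 with most reads outside 24 to 32 nt and the 5 nearest each side of each threshold, of which examples are given; others are said to be named after their values were seen. The windows, groups and rules were chosen with earlier results of these data known. The window rule and the matching of stacks were tested on simulated data. There, reads were spread evenly over each window, and copied stacks had far more reads than the smallest stacks grouped here. The simulation therefore does not show how the rule performs on narrow stacks, or the matching on stacks with few reads. Alternatives were other length ranges, window sizes, folds, read minimums and denominators. Python 3.11.15, numpy 2.4.6, pandas 2.3.3, scipy 1.17.1 and matplotlib 3.10.9 were used.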

Additional observations from a re-analysis of the deposited data

How the results depend on the processing

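Of 42 alternatives, 20 left the value within its limits (1.5 times for a count, the counting interval for a share) and 22 moved it. The count of 290 windows became 173 with reads of 26 to 31 nt (169 of them among the 290), 101 with each interval counted once, 138 with RPM over 24 to 32 nt reads and 153 with at least 50 reads. Other settings, from 2-fold to 8-fold, 10 reads, 24 to 28 nt, 5 kb windows and shifted tiles, gave 206 to 331. The windows' share of MEL reads of 24 to 32 nt was 63.6% with 26 to 31 nt, 7.99% by intervals, 65.5% with RPM over 24 to 32 nt reads, 67.2% at 8-fold, 69.0% with 5 kb windows and 47.0% without the 5 most-read windows. The share of 29 to 32 nt reads was 12.4% by intervals, 5.83% with RPM over 24 to 32 nt reads and 5.98% without those 5 windows. With RPM over 24 to 32 nt reads, 1 window overlapped a testis cluster. Outside 24 to 32 nt, the ratio of MEL to spleen was 5.09 by intervals, 38.5 for 18 to 23 nt and 25.3 without the 5 windows with most such reads. The ratio of MEL to testis was 73.1 by intervals and 285.5 without those 5 windows. The share of windows with a like stack was 0% for exactly equal counts, 31.4% with at least 50 reads and 40% by shape alone, an alternative chosen after seeing the data. For these moves the cause was not tested, beyond what each setting's construction fixes. No paired analysis was possible because each group has 1 library. With 3 reads as the floor, folds of the smallest windows rest on counts near that floor, and 83 windows had too few 18 to 23 nt reads to be judged. Counting intervals take each read as an independent molecule and each placement as certain, and neither could be checked in these files.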
